A study of Mus musculus with 26 samples.

Results

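The genes described here handle arginine, nitric oxide and itaconate, and 6 of them were followed in mouse lung macrophages after lipopolysaccharide (LPS): Nos2, Slc7a2, Ass1, Arg1, Arg2 and Acod1. They were taken from the count table by their Ensembl IDs, through the GENCODE M21 annotation of build GRCm38, and all 6 listed genes were found among its 55487 genes. The table holds RNA-seq counts of poly(A)-selected RNA from 26 libraries in 7 groups. Macrophages of bone marrow origin (BM) came from lungs on day 1 (n = 5), day 3 (n = 4) and day 7 (n = 3) after LPS, by the route that the submitters abbreviate IT. Resident alveolar macrophages (AM) came from untreated lungs, called day 0 (n = 3), and from lungs on day 1 (n = 4), day 3 (n = 3) and day 7 (n = 4) after the same treatment. The untreated libraries bear the word "Young" in their descriptions. For the other groups no age is given, and for none a strain, a sex or a sorting gate. The labels do not say whether replicates were separate animals, so the p-values below reflect only how much these libraries vary, part of which may be technical.

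Arginine is the shared substrate of a pair of competing enzyme classes in macrophages. Inducible nitric oxide synthase (Nos2) turns it into nitric oxide and citrulline, and argininosuccinate synthase (Ass1) begins the return of citrulline to arginine. The arginases, cytosolic Arg1 and mitochondrial Arg2, split it into urea and ornithine, the precursor of polyamines and proline, and the cationic amino acid transporter Slc7a2 brings arginine into the cell. Acod1 makes itaconate from the citrate cycle intermediate cis-aconitate in mitochondria, and itaconate inhibits succinate dehydrogenase. In mouse macrophages Nos2, Ass1, Slc7a2 and Acod1 are known targets of LPS and interferon signalling, and Arg1 is used as a marker of alternative activation.

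The genes lie on 6 chromosomes of GRCm38. Nos2 (ENSMUSG00000020826) spans bases 78920787 to 78960254 of chromosome 11, plus strand. Slc7a2 (ENSMUSG00000031596) spans 40862396 to 40922308 of chromosome 8, plus strand. Ass1 (ENSMUSG00000076441) spans 31470207 to 31520672 of chromosome 2, plus strand. Arg1 (ENSMUSG00000019987) spans 24915221 to 24927484 of chromosome 10, minus strand. Arg2 (ENSMUSG00000021125) spans 79130777 to 79156301 of chromosome 12, plus strand. Acod1 (ENSMUSG00000022126) spans 103046977 to 103056573 of chromosome 14, plus strand. Of the merged exons of Arg2, 285 of 1428 bases are shared with the opposite-strand gene Vti1b and 116 with the antisense RNA Gm48780. The strand setting of the counting is not given in the sources used here, so reads from these shared stretches cannot be assigned with certainty. Vti1b ran between 26.4 and 54.5 CPM in BM day 1 and between 50.6 and 105.8 CPM in AM day 1. These are the groups with the highest BM and AM medians of Arg2.

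Promoter sequence was at hand for 2 of the 6 genes, Acod1 and Ass1, both of which were higher in AM after LPS. The 250 bases before the start of each, from RefSeq on GRCm38.p6, plus strand, are shown because Acod1 carries letters of a kind that promoters of interferon and LPS targets often hold, while Ass1 carries none of those searched. The Acod1 stretch is chr14:103046762-103047011 and that of Ass1 is chr2:31470020-31470269, and capitals mark the matches. The start sites used here lie inside the GENCODE spans given above, so the end of each stretch overlaps the span of its gene.
Acod1: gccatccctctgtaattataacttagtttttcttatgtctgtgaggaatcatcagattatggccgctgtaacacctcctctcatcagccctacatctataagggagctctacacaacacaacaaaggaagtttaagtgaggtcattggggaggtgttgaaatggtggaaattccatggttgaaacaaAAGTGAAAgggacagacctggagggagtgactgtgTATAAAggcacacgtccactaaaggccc
Ass1: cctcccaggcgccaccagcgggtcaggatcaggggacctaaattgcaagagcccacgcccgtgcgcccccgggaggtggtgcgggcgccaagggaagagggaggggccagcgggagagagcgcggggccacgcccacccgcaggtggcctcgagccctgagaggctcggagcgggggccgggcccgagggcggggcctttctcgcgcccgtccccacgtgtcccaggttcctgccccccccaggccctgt
Both strands were searched for AANNGAAA (interferon regulatory factors), TATAAA, TTGCNNAA (C/EBP), TTCNNNGAA (STAT), TGANTCA (AP-1) and an NF-kB motif. The letters of the NF-kB motif are not given here, so its lack of a match in both stretches cannot be checked from the letters shown. In Acod1, AAGTGAAA matched AANNGAAA with its first base at -63 and TATAAA began at -28, counted from the start site. Of 32851 promoters of that length, AANNGAAA was in 21.3%, TATAAA in 12.4%, TTGCNNAA in 9.56%, the NF-kB motif in 7.25%, TTCNNNGAA in 7.02% and TGANTCA in 6.75%. A match describes letters and is not a measured site.

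Total counts ran from 9176202 to 80816742 per library, and the 3 untreated libraries were the deepest, from 35780951 upward. Markers of resident alveolar macrophages (13 genes, such as Siglecf, Marco and Chil3) summed to 18523 to 33607 CPM in every AM library, to 963 to 1823 in BM day 1, to 1797 to 4189 in BM day 3 and to 2915 to 16022 in BM day 7. BM_day3.1, replicate 1 of BM day 3, stood apart: its median r with the rest of the group was 0.734, and fibroblast markers reached 27366 CPM, against at most 320.2 CPM in the rest of its group. Its 13 neutrophil markers summed to 5039 CPM, against 596 to 1447 CPM in the rest. BM_day1.3 had the next lowest, 0.830. RNA of 4 Y-linked genes summed to 146 to 227 CPM in AM days 0, 1 and 3, to at most 4.08 in AM day 7, to 7.74 to 38.3 in BM day 1 and to at most 3.81 in BM day 7. In BM day 3 it was under 0.165 CPM in replicates 1 and 2 and 167 and 169 CPM in replicates 3 and 4. AM day 0 and BM day 1 each carry a prefix of their own in the library names, so that any effect of the preparation cannot be told apart from the group.

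Values are counts-per-million (CPM) scaled by TMM, given in replicate order, and a gene was called at an adjusted p under 0.05 in edgeR's quasi-likelihood test over 17143 genes. Fold changes are on the log2 scale with their standard errors. In bulk libraries fewer cells that express a gene and less of its RNA per cell cannot be told apart.

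**Figure D1:**
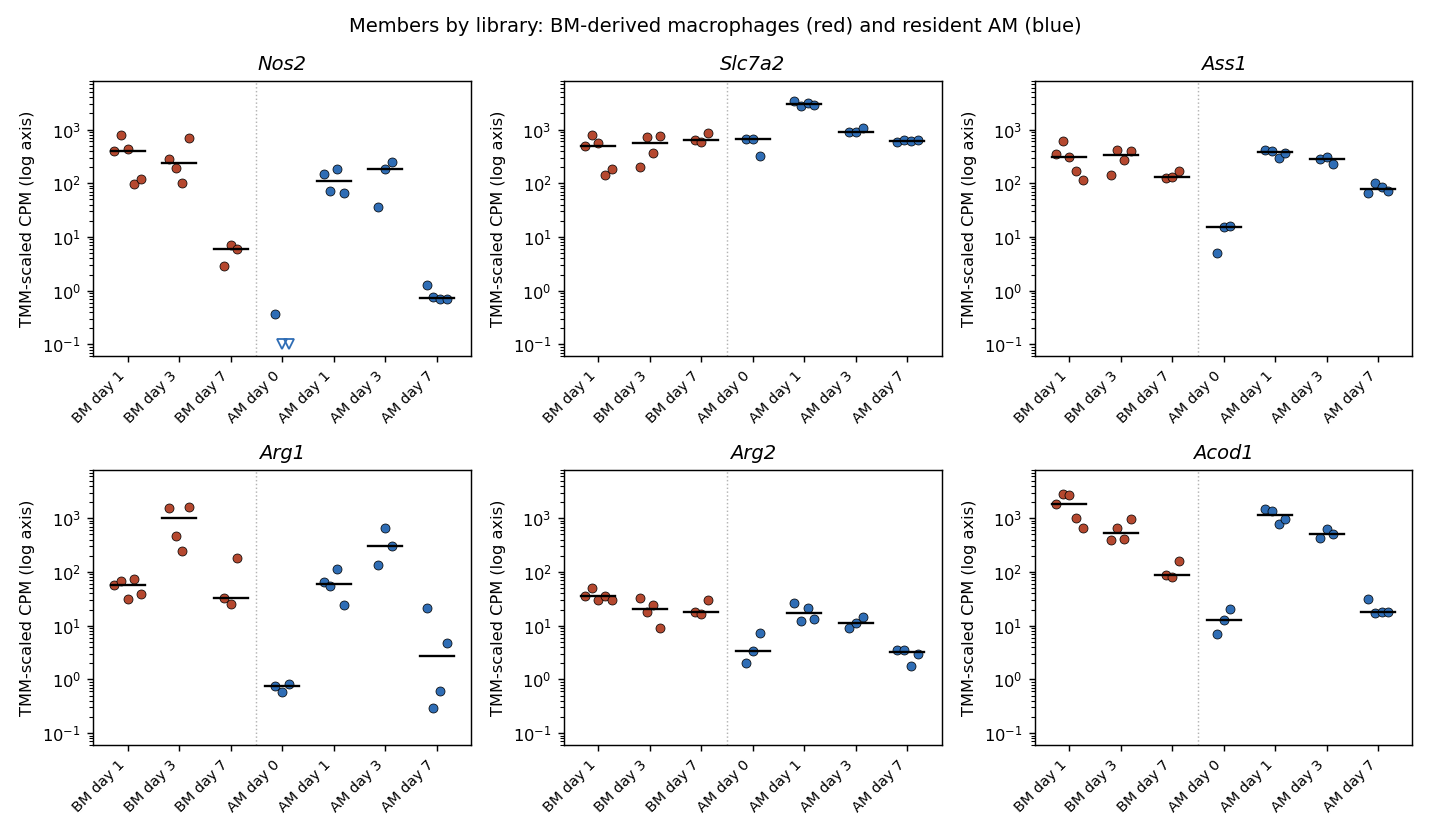
Each point is 1 library, with TMM-scaled CPM on a log axis and groups along the horizontal axis (BM red, AM blue); bars are medians and open triangles at the bottom mark libraries at 0. The 4 AM day 1 libraries of Slc7a2 sit between 2753 and 3468 CPM, above all others of that gene, and Nos2 is under 8 CPM in every BM day 7, AM day 0 and AM day 7 library.

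Slc7a2, the arginine transporter, was highest in AM on day 1 and lower in BM at that time. It had 499, 779, 558, 141 and 188 CPM in BM day 1, 201, 741, 366 and 755 in BM day 3 and 628, 574 and 878 in BM day 7. AM libraries had 673, 662 and 318 CPM on day 0, 3468, 2753, 3152 and 2918 on day 1, 912, 908 and 1056 on day 3 and 596, 646, 600 and 645 on day 7. All AM day 1 libraries were above every other library. The BM libraries lay within or below the range of untreated AM, but for 4 that lay above it. At day 1 Slc7a2 was lower in BM than in AM by 7.09-fold (log2 -2.83 ± 0.41, adjusted p = 1.4e-05), with no overlap. It rose in AM day 1 over AM day 0 by 2.48 ± 0.49 (adjusted p = 0.0019). On day 3 the groups did not overlap either, but BM against AM missed the threshold (-0.89 ± 0.44, adjusted p = 0.24), and on day 7 they overlapped (0.16 ± 0.44, adjusted p = 1.00). AM day 3 lay below AM day 1 without overlap at -1.68 ± 0.47, which was not called (adjusted p = 0.11). The change between these days differed between the cell types, with an interaction of 1.93 ± 0.60 (adjusted p = 0.040). This call held in 10 of the 26 fits that each left out 1 library, and ended when only the compared groups were fitted (adjusted p = 0.17), with no filter on low counts (adjusted p = 0.10) and with the replicate numbers of the titles as a block (adjusted p = 0.089). Among those fits it was lost without replicates 1 or 2 of AM day 0, 1, 2 or 3 of AM day 1, 1, 2 or 3 of AM day 3, 3 or 4 of AM day 7, 5 of BM day 1, 2 or 4 of BM day 3, or 1, 2 or 3 of BM day 7.

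Ass1, which starts the recycling of citrulline, was higher in AM on days 1, 3 and 7 than without LPS. It had 358, 610, 310, 168 and 113 CPM in BM day 1, 145, 409, 272 and 395 in BM day 3 and 128, 129 and 169 in BM day 7. The AM levels were 5.02, 15.4 and 15.9 CPM on day 0, 408, 394, 298 and 360 on day 1, 286, 309 and 228 on day 3 and 66.8, 102, 83.4 and 72.6 on day 7. Every library after LPS, in AM and BM, was above the highest untreated AM library. In AM it rose over day 0 by 4.92 ± 0.52 on day 1 (30.2-fold, adjusted p = 7.8e-07), by 4.51 ± 0.52 on day 3 (adjusted p = 3.1e-06) and by 2.75 ± 0.47 on day 7 (6.73-fold, adjusted p = 0.0024). The fall of AM day 7 against AM day 3 was -1.76 ± 0.42 (adjusted p = 0.028). BM and AM overlapped on days 1 and 3 (-0.22 ± 0.37 and 0.15 ± 0.42, adjusted p = 0.70 and 0.96). On day 7 the BM libraries lay above the AM libraries, with 0.81 ± 0.42 that was not called (adjusted p = 0.71). AM day 7 differed in Y-linked RNA from AM days 0 and 3. With that level as a covariate the day 7 results lost their calls (adjusted p = 0.12 against day 0 and 0.30 against day 3). Over all fits, that one included, the change stayed between 2.39 and 2.99 against day 0 and between -1.89 and -1.65 against day 3. In AM the Y-linked level was low only on day 7, so that there it cannot be told apart from the day. The call of day 7 against day 3 also ended with no filter on low counts (adjusted p = 0.092) and when any 1 of the AM day 3 and AM day 7 libraries was left out, with an adjusted p between 0.052 and 0.18.

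Nos2, the inducible nitric oxide synthase, was near or at 0 in untreated AM, high on days 1 and 3 in both cell types and low on day 7. It had 392, 777, 437, 97.6 and 121 CPM in BM day 1, 277, 190, 102 and 710 in BM day 3 and 2.93, 7.22 and 5.87 in BM day 7. AM libraries held 0.375, 0 and 0 CPM on day 0, 151, 71.7, 186 and 64.5 on day 1, 36.9, 181 and 248 on day 3 and 1.27, 0.778, 0.71 and 0.71 on day 7. Every library of days 1 and 3 was above every library of days 0 and 7, in both cell types. Within days 1 and 3 the libraries of a group differed by several fold. In AM it rose over day 0 by 9.66 ± 1.29 on day 1 (adjusted p = 3.2e-05) and by 10.05 ± 1.32 on day 3 (adjusted p = 3.7e-05). The size of both rests on the 30 counts of AM_day0.1. Against the other two untreated libraries, which were at 0, the mean of AM day 1 was at least 4754-fold higher and that of AM day 3 at least 6246-fold higher, with a floor of 3 counts over both. Nos2 fell by 7.44 ± 1.04 in AM day 7 against AM day 3 (adjusted p = 1.4e-04) and was lower in BM day 7 than in BM day 3 as well (-5.91 ± 1.06, adjusted p = 0.0025). On day 7 it was above the day 0 range in all 4 AM libraries, at 2.61 ± 1.07, which was not called (adjusted p = 0.64).

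Between the cell types Nos2 was not called on any day. BM against AM gave 1.63 ± 0.74 on day 1 (adjusted p = 0.10), 1.04 ± 0.83 on day 3 (adjusted p = 0.57) and 2.58 ± 0.92 on day 7 (adjusted p = 0.27). The groups overlapped on days 1 and 3. On day 7 the 3 BM libraries lay above the 4 AM libraries.

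Arg1, cytosolic arginase, had its highest median on day 3 in both cell types. It had 56.7, 68.3, 30.8, 75.3 and 38.7 CPM in BM day 1, 1584, 469, 243 and 1610 in BM day 3 and 33, 25.1 and 182 in BM day 7. In AM it had 0.763, 0.586 and 0.818 CPM on day 0, 64.7, 53.7, 114 and 24.8 on day 1, 133, 648 and 309 on day 3 and 21.2, 0.292, 0.609 and 4.77 on day 7. Day 3 libraries lay above all day 1 libraries in both cell types. Arg1 rose in BM day 3 over BM day 1 by 4.18 ± 0.92 (18.1-fold, adjusted p = 0.0028). In AM day 3 against AM day 1 it was 2.5 ± 0.97, which was not called (adjusted p = 0.31). The difference between these 2 changes was not called either, at 1.68 ± 1.29 (adjusted p = 0.50). In AM it rose over day 0 by 6.48 ± 1.3 on day 1 (adjusted p = 0.0027) and by 8.97 ± 1.46 on day 3 (adjusted p = 0.00052).

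By day 7 Arg1 had fallen in AM, by 5.74 ± 1.11 against AM day 3 (adjusted p = 0.0053). That call ended when only the AM day 3 and day 7 libraries were fitted (adjusted p = 0.055) and when Y-linked RNA was a covariate (adjusted p = 0.065). Over all fits, those included, the change stayed between -7.73 and -5.01. BM day 7 against BM day 3 was -3.62 ± 1.10 without overlap and lay near the threshold (adjusted p = 0.071). It was called by DESeq2 (adjusted p = 0.0027), with a stricter filter (adjusted p = 0.038) and without replicate 1 or replicate 2 of AM day 7 (adjusted p = 0.034 and 0.046). BM day 7 lay above AM day 7 without overlap, at 3.55 ± 1.02, which edgeR's test did not call (adjusted p = 0.098), while DESeq2 (adjusted p = 0.0098) and the stricter filter (adjusted p = 0.039) did. The AM day 7 libraries were far apart, with replicate 1 highest at 21.2 CPM. Without it BM against AM was 5.54 ± 1.07 and was called (adjusted p = 0.0060). On days 1 and 3 BM and AM overlapped (-0.25 ± 0.84 and 1.43 ± 0.99, adjusted p = 0.87 and 0.48). Within BM day 3, replicates 1 and 2, with little Y-linked RNA, had 1584 and 469 CPM of Arg1. Replicates 3 and 4, with 167 and 169 CPM of Y-linked RNA, had 243 and 1610 CPM. Replicate 1 is BM_day3.1, the library that stood apart in its markers. The part of Y-linked RNA in this spread was not tested.

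Arg2, mitochondrial arginase, had its highest median in BM on day 1. It had 35.4, 49.4, 30.2, 35.9 and 29.6 CPM in BM day 1, 32.4, 17.6, 24.0 and 9.15 in BM day 3 and 17.8, 16.6 and 30.3 in BM day 7. In AM it had 2.00, 3.37 and 7.28 CPM on day 0, 26.2, 12.2, 21.5 and 13.5 on day 1, 9.24, 11.1 and 14.7 on day 3 and 3.49, 3.50, 1.77 and 2.94 on day 7. BM lay above AM without overlap on days 1 and 7 and overlapped AM on day 3. On day 7 Arg2 was 7.35-fold higher in BM than in AM (2.88 ± 0.60, adjusted p = 0.0054). That call ended without replicate 3 of BM day 7 (adjusted p = 0.068). On days 1 and 3 BM against AM was not called (0.98 ± 0.52 and 0.84 ± 0.59, adjusted p = 0.16 and 0.48). Arg2 rose in AM day 1 over AM day 0 by 2.12 ± 0.62 (adjusted p = 0.038), a call that held in 16 of the 26 fits leaving out 1 library. It ended without replicates 1 or 2 of AM day 0, 1 or 3 of AM day 1, any of AM day 3 or any of BM day 7, and adjusted p reached 0.23. It also ended with no filter on low counts (adjusted p = 0.16) and with either replicate block (adjusted p = 0.052 and 0.056). AM day 7 overlapped AM day 0 (-0.52 ± 0.58, adjusted p = 1.00). In BM no change over time was called (-0.80 ± 0.52 for day 3 against day 1, adjusted p = 0.28, and 0.05 ± 0.58 for day 7 against day 3, adjusted p = 1.00).

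Acod1, which makes itaconate, had its highest median on day 1 in both cell types. It had 1865, 2799, 2744, 1032 and 663 CPM in BM day 1, 396, 646, 414 and 954 in BM day 3 and 87.4, 80.9 and 158 in BM day 7. In AM it had 7.08, 12.6 and 20.1 CPM on day 0, 1474, 1363, 784 and 983 on day 1, 427, 635 and 516 on day 3 and 30.9, 17.4, 18.3 and 18.3 on day 7. All libraries of days 1 and 3 were above all of days 0 and 7. In AM it rose over day 0 by 6.44 ± 0.58 on day 1 (86.8-fold, adjusted p = 7.8e-08) and by 5.31 ± 0.55 on day 3 (39.7-fold, adjusted p = 1.1e-06). AM day 7 overlapped day 0 (0.68 ± 0.44, adjusted p = 1.00), after a fall of 4.63 ± 0.47 on the log2 scale against AM day 3 (adjusted p = 1.6e-06).

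In BM, Acod1 fell by 1.60 ± 0.39 in day 3 against day 1 (adjusted p = 0.0062), though the groups overlapped. It was lower again in day 7 than in day 3 (-2.47 ± 0.47, adjusted p = 0.0034). The second call ended when only these BM libraries were fitted (adjusted p = 0.080). BM and AM overlapped on days 1 and 3 (0.66 ± 0.38 and 0.20 ± 0.43, adjusted p = 0.20 and 0.93). On day 7 Acod1 was 5.11-fold higher in BM than in AM (2.35 ± 0.44, adjusted p = 0.0026). The difference between the cell types in the change from day 3 to day 7 was 2.16 ± 0.61 and was not called by edgeR's test (adjusted p = 0.14). DESeq2 (adjusted p = 0.023) and the fit of the compared groups alone (adjusted p = 0.033) called it.

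**Figure D2:**
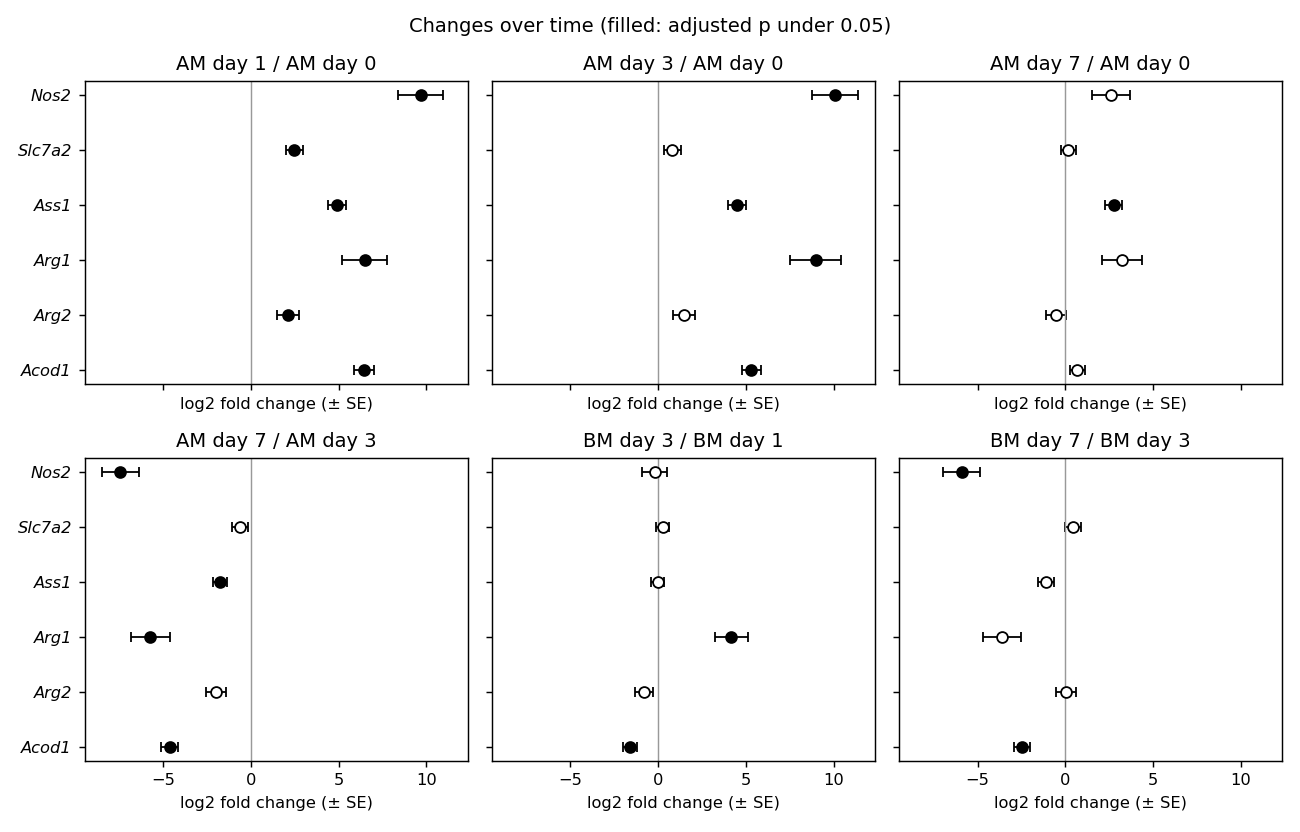
Log2 fold changes with standard errors for the 6 members, later day over earlier day or over untreated AM; filled points were called at an adjusted p under 0.05. All 6 members are filled and to the right of 0 in AM day 1 over AM day 0, and in BM day 3 over BM day 1 only Arg1 (4.18) is filled on the right and Acod1 (-1.60) on the left.

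In AM the count of members called fell with time after LPS. In AM day 1 against AM day 0 all 6 members were called higher, where 3.22% of all genes were called higher and 3.06% lower; the median log2 change of all genes was -0.20. In AM day 3 against AM day 0 the count was 4 higher, with 1.78% of all genes called higher and 0.723% lower. In AM day 7 against AM day 0 it was 1 higher, Ass1, with 0.408% higher and 0.268% lower over all genes. These comparisons share the untreated libraries. Neutrophil markers were also above the untreated level on days 1 and 3, as the sum of 13 genes was 1028 to 2043 CPM in AM day 1, 586 to 1175 in AM day 3 and 86.3 to 124 in AM day 7, against 75.3 to 94.2 in AM day 0. Lcn2 was the highest of them in every AM day 1 and day 3 library. S100a8 ran from 36.3 to 188 CPM and S100a9 from 28.0 to 286 CPM in AM day 1, against at most 4.35 and 1.19 CPM in AM day 0. Elane was at 0 in every library, and Mpo in AM days 1, 3 and 7. In AM day 1, 7 to 8 of the 13 genes reached 1 CPM, in AM day 3 it was 7 to 10 and in AM day 7 it was 6 to 7, against 4 to 5 in AM day 0. Their part in the members' changes was not tested.

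Between days, most calls in AM were falls of day 7 against day 3. In AM day 3 against AM day 1 no member was called, at a background of 0.624% of genes higher and 0.21% lower in edgeR's test. There, 3 members, Slc7a2, Arg1 and Acod1, had an unadjusted p under 0.05, and DESeq2 called Slc7a2. In AM day 7 against AM day 3 the members called were 4, all lower (Nos2, Arg1, Acod1 and Ass1), with 1.35% of all genes lower and 0.233% higher. In BM day 3 against BM day 1 it was 1 higher (Arg1) and 1 lower (Acod1), where 10.6% of all genes were higher and 15.2% lower. In BM day 7 against BM day 3 it was 2 lower (Nos2 and Acod1), with 0.898% of all genes lower and 3.09% higher. The neutrophil markers in BM summed to 637 to 1723 CPM on day 1, 596 to 5039 CPM on day 3 and 169 to 495 CPM on day 7, so that every day 7 library lay below those of days 1 and 3. In BM day 1, 9 to 12 of the 13 reached 1 CPM, in BM day 3 it was 4 to 9 and in BM day 7 it was 6 to 8, and their part in the BM values was not tested either.

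**Figure D3:**
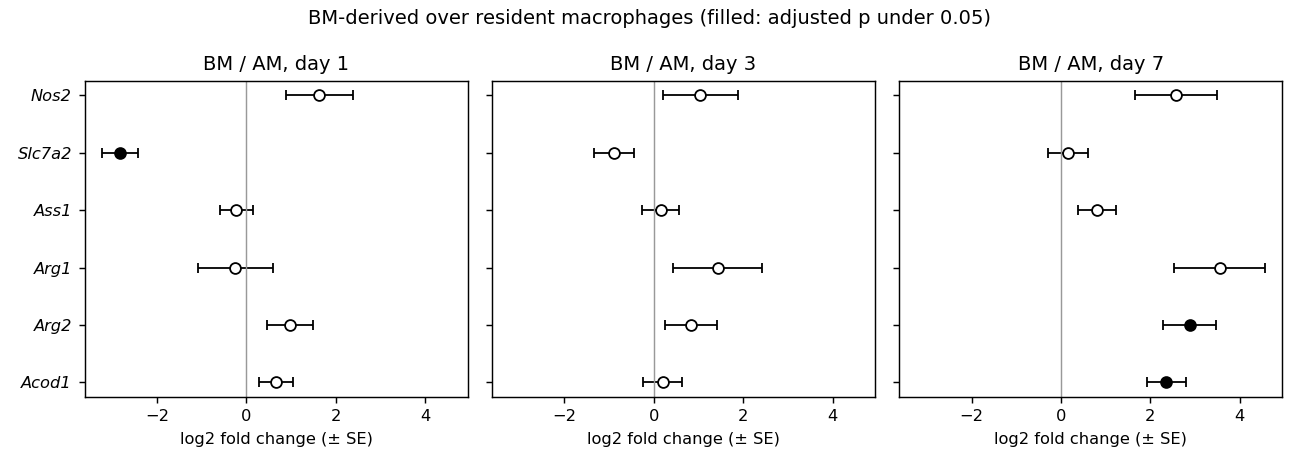
Log2 fold changes with standard errors for BM over AM on days 1, 3 and 7; filled points were called at an adjusted p under 0.05. Slc7a2 on day 1 (-2.83) is the filled point left of 0, and Arg2 (2.88) and Acod1 (2.35) on day 7 are the filled points right of 0.

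Between the cell types few members were called. In BM against AM on day 1 the count was 1 lower, Slc7a2, at a background of 13.8% of genes lower and 15.2% higher, and 1 of 6 members is close to that share. On day 3 no member was called, where 2.99% of all genes were lower and 0.997% higher, and no member had an unadjusted p under 0.05. DESeq2 called none either. On day 7 Acod1 and Arg2 were called higher, at 1.48% of all genes higher and 0.286% lower. Ass1 (0.81), Arg1 (3.55) and Nos2 (2.58) also lay higher in BM on day 7 without overlap, but were not called. How many of all genes were without overlap between these groups was not counted. With only these groups fitted, Nos2 and Ass1 were called too, and 2948 genes were called in place of 303. In the test of whether the day 3 to day 1 change differed between cell types, Slc7a2 was called on the positive side, with 3.52% of all genes called positive and 8.02% negative. In the same test for days 7 and 3 no member was called in edgeR's test, with 0.338% of genes positive and 0.0233% negative. Acod1 and Arg2 had an unadjusted p under 0.05 there, and DESeq2 called 1 member, Acod1. Without BM_day1.3 and BM_day3.1, the libraries that stood apart, Arg1 in BM day 3 over BM day 1 was 3.70 ± 1.04 (adjusted p = 0.016) and Acod1 was -1.24 ± 0.45 (adjusted p = 0.046). Slc7a2 in BM against AM on day 1 was then -2.94 ± 0.41 (adjusted p = 1.3e-05), and its interaction was 2.31 ± 0.59 (adjusted p = 0.014).

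The BM day 7 libraries were not alike. Replicate 3 had the highest level of 5 of the 6 members, among them Arg1 at 182 CPM and Acod1 at 158 CPM. The share of all genes that were highest in that library was not counted. Replicate 3 carried resident alveolar macrophage markers at a sum of 2915 CPM, against 15180 and 16022 CPM in replicates 1 and 2. Its neutrophil markers summed to 494.9 CPM, against 185.9 and 169.5 CPM. In AM day 3, replicate 2 had the highest Arg1, at 648 CPM, and the highest sum of 8 monocyte markers, at 2393 CPM, against 886.5 and 1009.5 CPM in the other two libraries. In AM day 7, replicate 1, the highest in Arg1, Nos2 and Acod1, had a monocyte marker sum of 227.5 CPM, against 166.3 to 202.1 CPM in the others. Untreated AM summed to 193.7 to 216.1 CPM. Of the 8 monocyte markers, 6 reached 1 CPM in replicate 1 of AM day 7, against 7 to 8 in the others of its group. All 13 resident markers reached 1 CPM in each BM day 7 library, and all 8 monocyte markers in each AM day 3 library. The part of these cells in the members' levels was not tested.

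Per length of transcript, the leading member changed with time. Levels in transcripts-per-million (TPM), which allow genes to be compared, put Slc7a2 first in all 3 untreated AM libraries, at a median of 244 TPM, while Nos2 was at a median of 0. Acod1 was first in 5 of 5 BM day 1 libraries (median 2269 TPM) and in 3 of 4 AM day 1 libraries (median 1136 TPM). On day 3 Arg1 had a median of 1420 TPM in BM, first in 2 of 4 libraries with Acod1 first in the other two, and of 387 TPM in AM, where Acod1 was first in 2 of 3 (median 548 TPM). On day 7 Slc7a2 was first again, at a median of 190 TPM in BM and 197 TPM in AM, in all libraries of both groups.

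**Figure D4:**
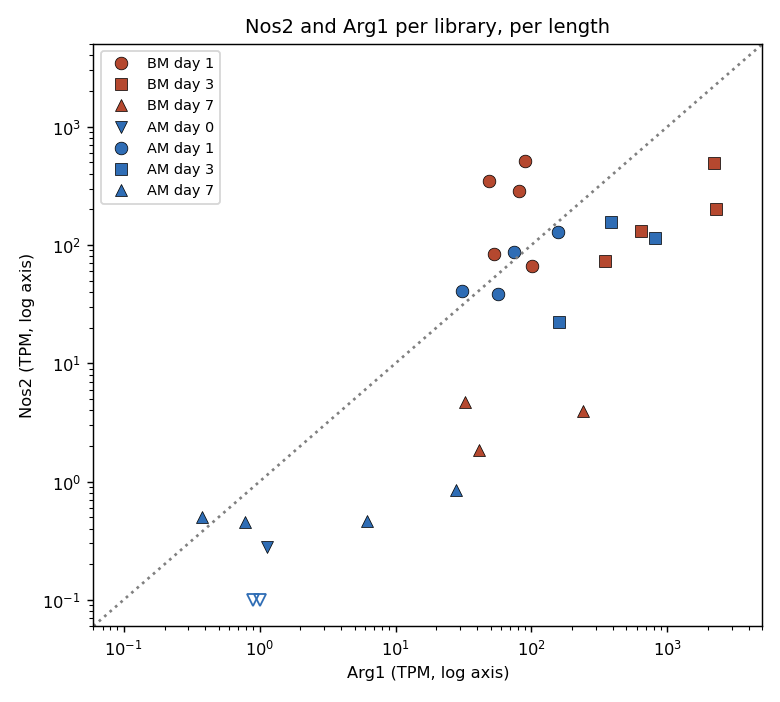
Each point is 1 library, with Arg1 TPM on the horizontal and Nos2 TPM on the vertical log axis; the dotted line marks equal levels and open symbols libraries with Nos2 at 0. In 4 of 5 BM day 1 libraries Nos2 is above the line, and all BM day 3 and AM day 3 libraries are below it.

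The balance of Nos2 to Arg1, both in TPM, moved toward Arg1 between days 1 and 3. The ratio Nos2/Arg1 had a median of 3.49 and a range of 0.655 to 7.16 in BM day 1, of 0.209 (0.0883 to 0.223) in BM day 3 and of 0.0449 (0.0163 to 0.145) in BM day 7. In AM it had a median of 0.998 (0.674 to 1.32) on day 1, of 0.141 (0.141 to 0.405) on day 3 and of 0.332 (0.0303 to 1.35) on day 7. The AM day 7 ratios rest on only 7 to 35 counts of Nos2 and 6 to 583 counts of Arg1 per library. The highest of them, 1.35, comes from 16 counts of Nos2 and 6 of Arg1. On day 0 the ratio could be formed in 1 library, at 0.248, from 30 counts of Nos2 and 61 of Arg1. Day 3 ratios lay below all day 1 ratios in both cell types. The arginases did not change places in AM between these days. In TPM, Arg2 was above Arg1 in all 3 untreated AM libraries (Arg1/Arg2 of 0.0720 to 0.244). On day 1 Arg1 was already the higher in 4 of 4 AM libraries (1.18 to 3.41). The same held for 3 of 3 on day 3 (9.19 to 37.5), but only for 2 of 4 on day 7. Among BM libraries the order was mixed on day 1, with Arg1 higher in 2 of 5 (0.655 to 1.34). All 4 of day 3 had more Arg1 (6.49 to 113), as did 2 of 3 on day 7.

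Genes of cofactor supply and nitric oxide handling (16 listed, with the synthases Nos1 and Nos3, and 14 tested) were not called in any AM comparison by edgeR's test, while 5 of the 14 had an unadjusted p under 0.05 in AM day 1 against AM day 0. Gch1, which makes the first step toward the Nos cofactor tetrahydrobiopterin and was the most abundant of the list, averaged 147 ± 29.9 CPM in AM day 1 and 72.9 ± 30.2 CPM in AM day 0 (SD, n = 4 and 3), a change of 1.01 ± 0.35 that was not called (adjusted p = 0.083). In BM against AM on day 1, 2 of the 14 were higher and 4 lower, where 15.2% of all genes were higher and 13.8% lower, with a list median of -0.79 beside 0.06 for all genes. The higher were Ddah2 and Gucy1b1, and the lower also held Prmt1 (-0.96) and Adh5 (-0.73), 4 genes named after their values were seen. Gch1 was among the lower (82.1 ± 29.4 CPM in BM, 147 ± 29.9 in AM, -0.84 ± 0.29, adjusted p = 0.035). Qdpr, which regenerates the cofactor, was lower too (10.7 ± 8.57 CPM in BM, 99.0 ± 13.6 in AM, -3.21 ± 0.63). In BM day 3 against BM day 1, 3 were higher and 1 lower, at 10.6% of all genes higher and 15.2% lower, with Qdpr higher by 1.83 ± 0.61 (adjusted p = 0.032).

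Of the 10 genes of arginine transport and recycling other than the members, 9 were tested. Slc3a2, the heavy chain shared by several amino acid transporters, was higher in AM day 1 (597 ± 48.0 CPM) than in AM day 0 (342 ± 79.5 CPM), by 0.80 ± 0.18 (adjusted p = 0.0040), and lower in AM day 3 than in AM day 1 (-0.73 ± 0.18, adjusted p = 0.045). Gatm, which uses arginine to make the creatine precursor guanidinoacetate, was highest in AM on day 3, like Arg1. It averaged 120.3 ± 113 CPM in AM day 3, where the libraries ran from 43.8 to 249.9, and 15.8 ± 6.72 CPM in AM day 1 (2.93 ± 0.48, adjusted p = 0.0023), and was lower in AM day 7 than in AM day 3 (-2.59 ± 0.48, adjusted p = 0.0019). AM day 3 was also above AM day 0 (3.17 ± 0.54, adjusted p = 0.00050). Gatm was higher in BM than in AM on day 1 (2.36 ± 0.45, adjusted p = 0.00024) and on day 7 (2.06 ± 0.47, adjusted p = 0.015), and it rose in BM day 3 over BM day 1 by 1.64 ± 0.41 (adjusted p = 0.0063). Slc7a1, another cationic amino acid transporter, fell in BM day 3 to 17.2 ± 12.7 CPM, against 84.6 ± 20.9 CPM in BM day 1 (-2.30 ± 0.63, adjusted p = 0.011). In the list as a whole, 1 was higher and 2 lower in BM against AM on day 1 (Asl, at -0.72, and Nags, both named after their values were seen), at a background of 15.2% higher and 13.8% lower. Between BM day 3 and BM day 1, 1 was higher and 2 lower on day 3, where 10.6% of all genes were higher and 15.2% lower, with Slc3a2 at -0.45 ± 0.15. In AM day 1 against AM day 0, 2 were higher and 0 lower, beside 3.22% and 3.06% of all genes.

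The pathway from ornithine to polyamines and proline had 19 genes listed and 18 tested. In BM against AM on day 1, 3 were higher and 6 lower, where 15.2% of all genes were higher and 13.8% lower, with a list median of -0.42 beside 0.06 for all genes. Smox, which oxidises spermine, averaged 338 ± 69.3 CPM in BM and 56.6 ± 13.4 CPM in AM (2.58 ± 0.29, adjusted p = 1.4e-07). Eif5a, the translation factor that carries the spermidine-derived residue hypusine, was the most abundant of the list and lower in BM (337 ± 40.3 CPM) than in AM (1232 ± 113 CPM), at -1.87 ± 0.13. Azin2 ran from 1.83 to 33.9 CPM in BM day 1, with a median of 5.25, and was at 0 in all AM day 1 libraries. On day 3 Eif5a was lower in BM than in AM as well (-0.82 ± 0.15, adjusted p = 0.0022). In AM day 1 against AM day 0, Eif5a was higher (0.88 ± 0.15) and Sat1, which starts polyamine breakdown, lower (-0.84 ± 0.17). In AM day 3 against AM day 1 it was the other way round, with Eif5a lower (-0.73 ± 0.15) and Sat1 higher (0.72 ± 0.17). In BM day 3 against BM day 1, where Arg1 was higher, 0 were higher and 4 lower, at 10.6% of all genes higher and 15.2% lower. Odc1, the enzyme that turns ornithine into putrescine, fell to 63.3 ± 35.5 CPM in BM day 3, against 295 ± 42.7 CPM in BM day 1 (-2.22 ± 0.36, adjusted p = 7.9e-05). Smox (-2.56 ± 0.29) and Aldh18a1 (-1.82 ± 0.65), an enzyme of proline synthesis from glutamate, fell as well.

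Of the 19 genes around itaconate (citrate supply, succinate dehydrogenase and itaconate breakdown), 18 were tested and edgeR's test called none in any AM comparison, while 4 had an unadjusted p under 0.05 in AM day 1 against AM day 0. In BM against AM on day 1, 0 were higher and 7 lower, with a list median of -0.63 beside 0.06 for all genes and a background of 15.2% higher and 13.8% lower. They included 3 subunits of succinate dehydrogenase, the enzyme that itaconate inhibits. Sdhd averaged 46.8 ± 19.9 CPM in BM and 132 ± 17.7 CPM in AM (-1.49 ± 0.22), and Sdhc (-1.13 ± 0.21) and Sdha (-0.72 ± 0.18) were lower too. Sucla2, a subunit of succinyl-CoA ligase, averaged 25.5 ± 11.7 CPM in BM and 50.7 ± 11.8 CPM in AM (-0.99 ± 0.35, adjusted p = 0.036). In BM day 3 against BM day 1, where Acod1 was lower, 4 were higher and 0 lower, at 10.6% of all genes higher and 15.2% lower. They were Sdhd (1.28), Sdhc (0.84), Sdha (0.76) and Idh1 (0.87), the cytosolic isocitrate dehydrogenase, named here after its values were seen. On day 3 Idh1 was lower in BM than in AM (-1.41 ± 0.34, adjusted p = 0.017).

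Among 14 transcription factors and receptors known to act on the members, Irf1, which acts in the interferon response, was higher in AM day 1 than in AM day 0 and lower in BM day 7 than in BM day 3. It averaged 562 ± 223 CPM in AM day 1 and 137 ± 71.8 CPM in AM day 0 (2.04, adjusted p = 0.0092). In BM day 7 against BM day 3 it was -1.89 ± 0.48 (adjusted p = 0.025). Ifngr1, a chain of the interferon-gamma receptor, fell in AM day 1 to 93.1 ± 22.1 CPM, against 225.5 ± 13 CPM in AM day 0 (-1.28, adjusted p = 0.00070). In BM against AM on day 1, 8 of the 14 were higher and 0 lower, among them Ifngr1 (1.71), Stat3 (1.27), Nfkb1 (1.02) and Cebpb (0.88), with a list median of 0.76 beside 0.06 for all genes and a background of 15.2% higher and 13.8% lower. Cebpb, a factor known to act on Arg1 in mouse macrophages, averaged 690.5 ± 103 CPM in BM day 3 and 2089 ± 245 CPM in BM day 1 (-1.60, adjusted p = 1.4e-08), while Arg1 was higher (4.18). The part of Cebpb in the level of Arg1 was not tested. On day 3 Cebpb was also lower in BM than in AM (-0.54, adjusted p = 0.036). Of the 14, 1 was higher and 6 were lower in BM day 3 than in BM day 1, where 10.6% of all genes were higher and 15.2% lower. Nfkb1 (-1.34 ± 0.19) and Stat3 (-1.27 ± 0.21) were among the lower. Cebpb was higher in BM day 7 than in BM day 3 (0.65 ± 0.15, adjusted p = 0.010).

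Genes of alternative activation that are often measured beside Arg1 (9 listed, 9 tested) had no member called higher in any AM comparison by edgeR's test, and 2 of the 9 had an unadjusted p under 0.05 in AM day 1 against AM day 0. Mrc1, the mannose receptor, fell in AM day 1 to 652 ± 364 CPM, against 1666 ± 432 CPM in AM day 0 (-1.35, adjusted p = 0.046). In BM against AM on day 1, 1 was higher, Clec10a (3.81, named after its values were seen), and 4 lower, at a background of 15.2% higher and 13.8% lower. The chemokine Ccl17 averaged 18.1 ± 13.5 CPM in BM and 336.3 ± 164 CPM in AM (-4.21 ± 1.15, adjusted p = 0.0094). Mrc1 averaged 110.1 ± 23.3 CPM in BM and 652 ± 364 CPM in AM (-2.57 ± 0.37, adjusted p = 1.2e-05). Chil3, a chitinase-like protein that is also in the list of resident markers, averaged 520 ± 123 CPM in BM day 1 and 12192 ± 1419 CPM in AM day 1, and it was higher in BM day 3 than in BM day 1 (2.22, adjusted p = 8.1e-05) and in BM day 7 than in BM day 3 (1.66, adjusted p = 0.016). On day 3, Chil3 (-2.85) and Mrc1 (-1.76) were lower in BM than in AM. In the comparisons of these 6 lists not given here, no more than 2 genes of a list were called in 1 direction.

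The genes with the most similar course to each member were sought among 13167 named genes by Pearson's r of log2(CPM + 1) over the 26 libraries, which fall into 7 groups, so that r includes the differences between groups. For Nos2 they were Hk3 (0.965), Rsad2 (0.956) and Slfn1 (0.954). For Slc7a2 they were Edem2 (0.872), Dnajb11 (0.861) and Snx10 (0.860). For Ass1 they were Mmp14 (0.932), Gbp3 (0.928) and Aoah (0.920). For Arg1 they were Saa3 (0.958), Tgfbi (0.918) and Igsf6 (0.911), and for Arg2 Spred1 (0.928), Pvr (0.915) and Socs3 (0.908). For Acod1 they were Upp1 (0.971), Oasl2 (0.969) and Rsad2 (0.964). Among the members themselves Nos2 and Acod1 were most alike (0.947), and Slc7a2 and Arg2 least (-0.0849). After the group means were removed, the highest value was that of Ass1 with Acod1 (0.791), and Nos2 with Acod1 stood at 0.562.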

How the data were processed

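RNA-seq of 26 mouse lung macrophage libraries in 7 groups was analysed. The values are raw counts per gene that the authors deposited, made with Trimmomatic 0.39, HISAT2 2.1.0 and featureCounts 2.0.0 on GRCm38, per the submitters' processing notes, after FastQC 0.11.9. RNA was poly(A)-selected into stranded libraries, per the labels' protocols. The annotation release and the strand setting of the counting are not given in the sources used here.

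From the counts, edgeR 4.0.16 (R 4.3.3) computed TMM scaling, CPM and quasi-likelihood tests in 1 fit of all 26 libraries, over the 17143 genes that passed filterByExpr at a minimum count of 10, with Benjamini-Hochberg adjustment and a threshold of 0.05. TPM used exon lengths of GENCODE M21, whose symbols matched 55227 of 55487 IDs. The procedure was tested on simulated data. Groups came from the labels. Alternatives were DESeq2 1.42.0, other scalings and filters, the compared groups alone, replicate blocks, a Y-linked covariate and each library left out. The members and lists were chosen with earlier results of these data known. The text names all 6 members and, in each of the 6 pathway lists and pairwise comparisons, up to 3 called genes with the largest change whose groups did not overlap and whose mean reached 5 CPM, plus the most abundant gene of each list where it was called. Gch1, the most abundant of its list, is also named in AM day 1 against AM day 0, where it was not called. One gene of the list of transcription factors and receptors is not reported here.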

Additional observations from a re-analysis of the deposited data

Results flagged for a closer look

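In AM day 7, replicate 1 stood apart from the other 3 libraries in Nos2, at 1.27 CPM against 0.71 to 0.778 CPM, and in Acod1, at 30.9 CPM against 17.4 to 18.3 CPM. The gap to the nearest library was 0.879 of the group's range for Nos2 and 0.933 for Acod1. Chance gives a gap large enough to be flagged in about 1 in 20 groups, and 24 gene and group pairs were examined. Both flags fall on the same library, and its Nos2 value rests on 35 counts, against 7 to 16 in the others. For Slc7a2 the change of day 3 against day 1 differed between BM and AM by 1.93 on the log2 scale in the test of the interaction.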

How the results depend on the processing

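Of 72 member results, 23 were called, 16 of them in every alternative, and none of the 23 changed sign; 35 of the 49 others were called in none. The number of members called moved by more than 1.5 times as follows. With DESeq2 it was 2 for BM against AM on day 1 and AM day 7 against day 0, and 1 for AM day 3 against day 1 and the day 7 interaction. With the compared groups alone it was 4 for BM against AM on day 7, 3 for AM day 3 against day 1, 1 for BM day 7 against day 3, 0 for the day 3 and 1 for the day 7 interaction. The Y-linked covariate gave 0 for AM day 7 against day 0 and 2 against day 3. Without BM_day1.3 and BM_day3.1, AM day 3 against day 1 gave 1. Without a filter the day 3 interaction gave 0. Moves of 1 member were 3 for BM against AM on day 7 (DESeq2, stricter filter), 5 for AM day 1 against day 0 (no filter, both replicate blocks), 5 for AM day 3 against day 0 (DESeq2), 5 for AM day 7 against day 3 (DESeq2, stricter filter, compared groups alone, without those libraries) or 3 (no filter), and 3 for BM day 7 against day 3 (DESeq2, stricter filter, and the description block with Ass1 at adjusted p = 0.046).

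Over all groups, deviations of same-numbered libraries correlated from -0.113 to 0.0928, and those of other libraries from -0.137 to 0.162. Most of these pairs join different days, so that pairing of BM with AM within a day was not tested. With the title numbers as a replicate block the day 3 interaction gave 0, and with the description numbers AM day 3 against day 1 gave 1 (that block could not be fitted for comparisons with BM day 1).

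Leaving out 1 library gave 1 to 3 members for BM against AM on day 7, 0 to 1 for AM day 3 against day 1 and the day 3 interaction, and elsewhere moved it by at most 1. Signs that turned belonged to uncalled values. Ass1 in BM day 3 against day 1 was 0.0265 with library size alone and 0.21 without BM_day1.3 and BM_day3.1. Arg2 in BM day 7 against day 3 was -0.0544 with DESeq2 size factors, -0.0510 with library size alone, -0.0551 with DESeq2, -0.0377 with the title replicate block and -0.14 with the Y-linked covariate. Leaving out 1 library, the ranges were, for BM against AM, -0.14 to 0.35 (Acod1, day 3), -0.52 to 0.17 (Arg1, day 1), -0.58 to 0.0294 (Ass1, day 1), -0.0358 to 0.38 (Ass1, day 3) and -0.0549 to 0.26 (Slc7a2, day 7). In AM they were -0.85 to 0.12 (Arg2, day 7 against day 0), -0.10 to 0.35 (Slc7a2, day 7 against day 0) and -0.12 to 0.86 (Nos2, day 3 against day 1). In BM they were -0.28 to 0.34 (Ass1), -0.95 to 0.27 (Nos2) and -0.00048 to 0.55 (Slc7a2) for day 3 against day 1 and -0.26 to 0.35 (Arg2) for day 7 against day 3. The Arg2 day 3 interaction ran from -0.44 to 0.0883. The cause was not tested.

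For BM against AM, edgeR called 683 genes on day 3, DESeq2 1834, no filter 398, the compared groups alone 6, the Y-linked covariate 273 and the fit without BM_day1.3 and BM_day3.1 1059. On day 7 edgeR called 303, DESeq2 604, the compared groups alone 2948 and the fit without those libraries 612. Against AM day 0, edgeR called 1077 (day 1), 430 (day 3) and 116 (day 7), DESeq2 2051, 937 and 341, the compared groups alone 1862, 2327 and 2578, the fit without those libraries 2425, 838 and 219, and the covariate 37 on day 7. For AM day 3 against day 1 the 143 became 844 (DESeq2) and 470 (without those libraries). For AM day 7 against day 3 the 272 became 639 (DESeq2), 2246 (compared groups alone), 97 (covariate) and 470 (without those libraries). For BM day 3 against day 1 the 4432 became 2773 (stricter filter), 1117 (compared groups alone) and 2500 (title block). For BM day 7 against day 3 the 683 became 1496 (DESeq2) and 41 (compared groups alone). For the day 3 interaction the 1979 became 1253 (stricter filter), 498 (compared groups alone) and 1086 (title block). For the day 7 interaction the 62 became 600 (DESeq2), 40 (its size factors), 36 (no filter), 323 (compared groups alone), 21 (title block), 18 (covariate) and 104 (without those libraries). Leaving out 1 library, the lowest were 225 for BM against AM on day 3 (without AM_day3.3), 200 on day 7 (without BM_day7.3), 558, 264 and 56 against AM day 0 (without AM_day0.1, AM_day3.2 and AM_day0.2), 31 for AM day 3 against day 1 and 135 for AM day 7 against day 3 (both without AM_day3.2), 308 for BM day 7 against day 3 (without BM_day7.1), 1180 for the day 3 interaction (without AM_day3.2) and 17 for the day 7 interaction (without AM_day7.3 or AM_day7.4). Without BM_day3.1 they were 463 for BM against AM on day 7, 1732 for AM day 1 against day 0 and 250 for AM day 3 against day 1, and without BM_day3.2 the day 7 interaction gave 115. In replicates 2 and 3 of untreated AM, Nos2 was not detectable at that depth.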
